A study of Drosophila melanogaster with 8 samples.

Results

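The genes described here are the 1314 genes of the Drosophila melanogaster X chromosome whose mean level over 8 libraries of Malpighian tubule RNA was at least 1 RPKM, of 2158 X-linked genes and 13942 genes in all. RPKM is reads per kilobase of transcript, scaled to the reads of the library, so it can be compared between genes of different length. The set was chosen by chromosome and by mean level, so the level is not a result. The mean is taken over both sexes and both populations, so a gene can be admitted through a high level in 1 sex or 1 population alone. It is set beside the 6859 autosomal genes that reach the same level, out of 11661. A further 58 genes on heterochromatic scaffolds, the Y chromosome, unplaced sequence or the mitochondrial genome also reached 1 RPKM and belong to neither set. The X-linked genes nearest to the limit were CG32599 at 1.00 RPKM and CG11162 at 1.01 RPKM inside it, and RunxB at 0.990 RPKM and bou at 0.989 RPKM outside it.

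The flies came from an African population (Zimbabwe) and a European population (the Netherlands), and tubules of females and of males were sequenced in 2 libraries for each of the 4 groups. Adults were 2 to 4 days old per the labels, were reared at 22 degrees with 14 h of light and 10 h of dark, and carried no introduced allele or treatment. Each library pooled tubules from several isofemale lines of its population, so the spread between libraries is that between pools and says nothing of differences between flies or lines. In bulk RNA of this kind, fewer cells of a type and less RNA per cell cannot be told apart.

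Malpighian tubules are the excretory organ of insects, the counterpart of a kidney, in which large principal cells and slender stellate cells move ions and water and clear waste. Female flies carry a pair of X chromosomes and males a single one. In males the MSL complex, built from the proteins MSL1, MSL2, MSL3, MLE and MOF with noncoding roX RNAs, binds the X and raises its transcription, so that most X-linked genes reach about the female level. In females the RNA-binding protein Sex-lethal blocks the translation of msl-2, and the complex is not assembled. The comparison of male to female ratios on the X with those on the autosomes asks how closely the single X of males matches the female pair in this organ, and whether the match is alike in both populations, at all levels of expression and in all functions.

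The 8 libraries held 19528634 to 27099855 reads, of which 18.6% to 20.03% came from X-linked genes. Markers of principal cells summed to between 10165 and 14427 RPKM over the libraries and those of stellate cells to between 490.2 and 597.9 RPKM, so both defining cell types of the labelled tissue were present in all 8. Other organs were also present. The 13 markers of fat body outside the X-linked set ranged in sum from 51.8 to 140.8 RPKM over the female libraries and from 18.3 to 91.0 RPKM over the male ones, which overlap, and markers of the midgut stood at 5116 RPKM in African male replicate 1 and 2190 RPKM in African male replicate 2 against 248.5 to 658.2 RPKM in the other libraries. Testis markers, none of which is X-linked, summed to between 51.3 and 57.2 RPKM in the female libraries and to between 76.9 and 282.6 RPKM in the male libraries. The first library of African males therefore stands furthest apart, followed in midgut markers by the second. The difference between the X and the autosomes is also given without the first.

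Both sets were chosen at the same limit of level, so the following only describes them. The X-linked median level was 10.7 RPKM with quartiles of 4.54 and 28.9 RPKM, against an autosomal median of 11.2 RPKM with quartiles of 4.43 and 31.6 RPKM. Transcripts were longer on the X, with a median of 2188 bases against 1829. Every one of the 1314 genes passed the filter of 12 reads over the 8 libraries. The lowest total among them was 68 reads and the median was 5013 reads, so counting error was small for most of the set. Of these genes 28, or 2.13%, averaged at least 1 RPKM in males only and 14, or 1.07%, in females only. The shares of the autosomal genes were 2.93% and 1.31%.

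In each library the median level of the X-linked genes was set against that of the autosomal genes on the log2 scale of scaled RPKM plus 0.1. This difference was -0.0012 and 0.018 in the African females and -0.039 and 0.017 in the European females. It was -0.16 and -0.11 in the African males and -0.13 and -0.11 in the European males. All 4 male libraries thus lay below all 4 female libraries. Females averaged -0.0014 ± 0.026 and males -0.13 ± 0.027 (SD, n = 4 each). Each gene was also taken as its deviation from its own mean over the 8 libraries. The median deviation of the X less that of the autosomes was smaller, at 0.027 ± 0.023 in females and -0.027 ± 0.012 in males (SD, n = 4 each). A difference of median levels need not equal a median of ratios gene by gene, which is given below. Among the differences of median level, the lowest belonged to African male replicate 1. X-linked genes made up 17.4% ± 0.641 of the RPKM summed over both sets in females and 16.9% ± 0.503 in males, with overlapping libraries. When the 8 X-linked genes of highest level were left out these shares became 11.8% ± 0.286 and 10.95% ± 0.311 (SD, n = 4 each), and the libraries of the 2 sexes no longer overlapped.

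**Figure D1:**
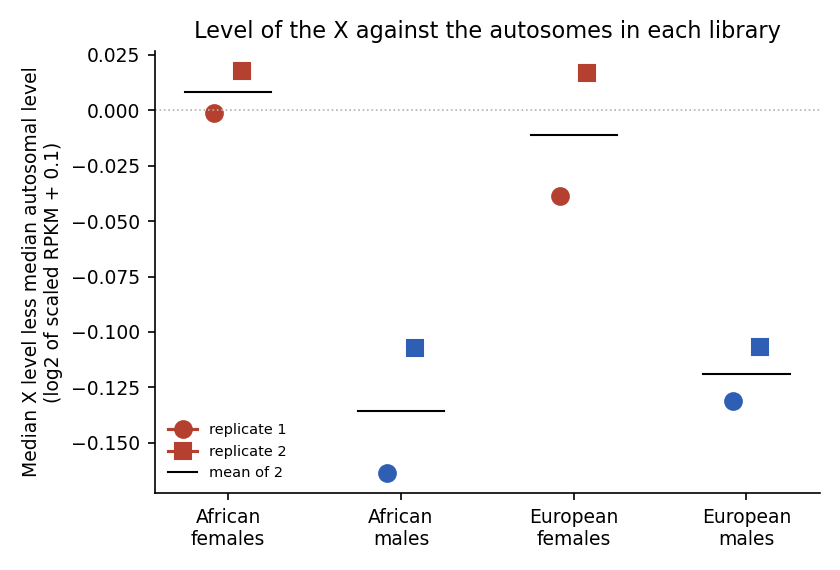
Median log2 level of the 1314 X-linked genes less that of the 6859 autosomal genes (vertical axis, log2 of scaled RPKM plus 0.1) in each of the 8 libraries, grouped by population and sex. Circles are replicate 1, squares replicate 2 and lines the means of 2. The female libraries lie between -0.039 and 0.018 and the male libraries between -0.16 and -0.11.

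Male and female levels of X-linked genes were close, and the whole distribution of ratios was displaced slightly towards females. The median log2 male to female ratio was -0.062 on the X, with quartiles of -0.20 and 0.08, whereas the autosomal median was -0.0025 with quartiles of -0.10 and 0.11. The medians of the large arms 2L, 2R, 3L and 3R lay within 0.0048 of 0, and that of the small chromosome 4, with 60 genes, was -0.076. The X therefore lay 0.060 below the autosomes on the log2 scale, which places X-linked genes in males at 96.0% of their female level relative to autosomal genes, where a single X without any adjustment would lie at -1. Without African male replicate 1 the difference between X and autosomes was -0.054, and across the 8 ways of leaving out 1 library it ranged from -0.068 to -0.053. Ratios below 0 were found for 60.8% of X-linked genes and 50.7% of autosomal genes.

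The displacement consisted of many small differences. Between -0.5 and -0.25 lay 12.7% of X-linked genes against 6.01% of autosomal genes, and between 0 and 0.25 lay 27.1% against 36.7%. In the outer classes the order differed by direction. More than 2-fold higher levels in females were found for 1.52% of X-linked and 0.875% of autosomal genes, whereas more than 2-fold higher levels in males were found for 2.82% of X-linked and 3.79% of autosomal genes. The middle of the distribution was also wider on the X, with a quartile range of 0.28 against 0.22.

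**Figure D2:**
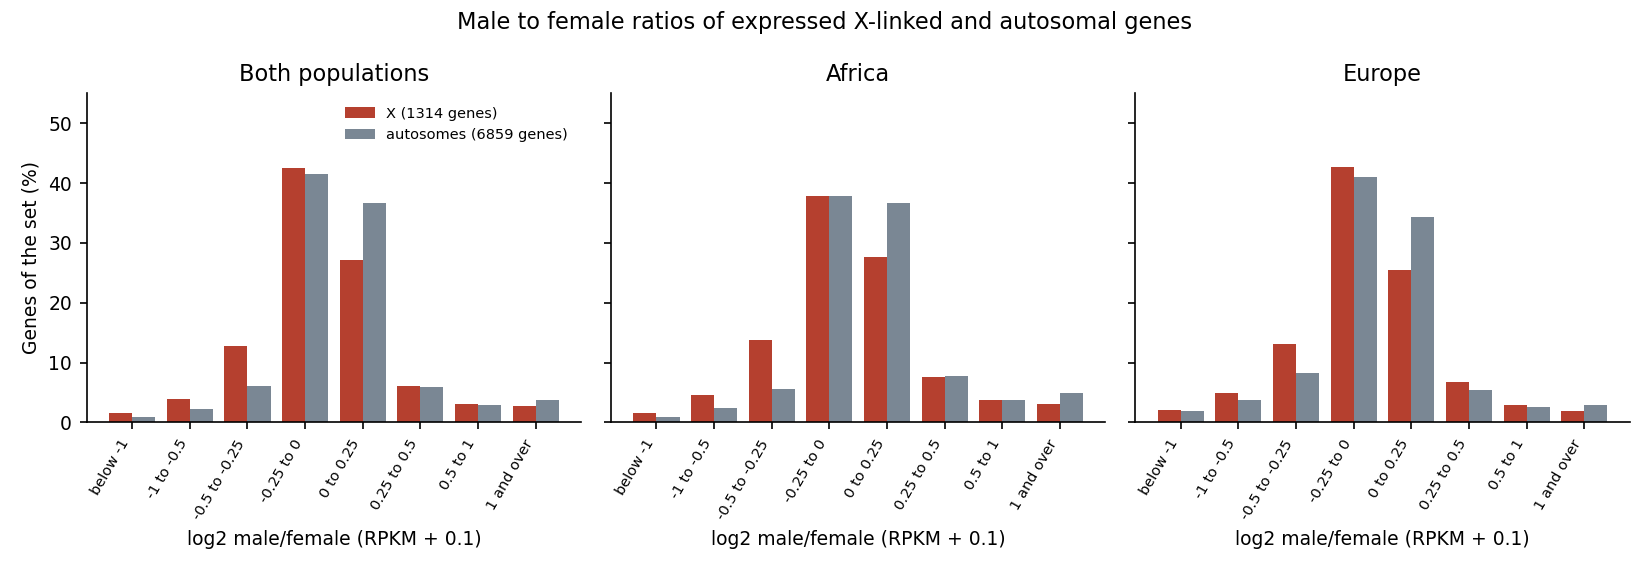
Share of genes (vertical axis, percent of the set) in classes of log2 male to female ratio (horizontal axis) for the X, in red, and the autosomes, in grey, with both populations together and for each population. In all panels the X has more genes between -0.5 and -0.25 and fewer between 0 and 0.25.

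Fitted over both populations, 190 X-linked genes were female-biased (higher in females) and 87 male-biased (higher in males). These calls used limma on log2(RPKM plus 0.1) with sex and population as factors and an adjusted p under 0.05 over the 12580 genes tested. The background over all those genes was 4.12% female-biased and 7.62% male-biased, and on the X the shares were 14.5% and 6.62%. Among autosomal genes 259, or 3.78%, were female-biased and 425, or 6.20%, male-biased. The share of male-biased genes on the X was thus near its background, and that of female-biased genes was above it. No test of the whole set was made, since genes are not replicates of a condition.

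Most female-biased genes on the X differed by little. Of the 190, 139 had a ratio closer to 0 than -0.5, which is 1.41-fold, 34 lay between -0.5 and -1, and 17 differed by more than 2-fold. The median of the 190 was -0.35, or 1.27-fold, and 164 of them had all 4 female libraries above all 4 male libraries. Of the 87 male-biased genes 43 were closer to 0 than 0.5, 25 lay between 0.5 and 1, and 19 exceeded 2-fold, with a median of 0.50 or 1.42-fold. Counted without a test, all 4 female libraries lay above all 4 male libraries for 19.3% of X-linked genes against 6.88% of all genes tested, and the reverse held for 5.94% against 7.37%. Among autosomal genes of the same limit these shares were 6.75% and 4.93%, so both orders were more frequent on the X than there. The order of the libraries was read from the deposited RPKM, without the scaling factors used for the calls.

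The number of calls depended on single libraries. The 190 female-biased genes fell to 126 and 116 without African female replicate 1 or 2, to 111 and 88 without European female replicate 1 or 2, and to 101 and 103 without European male replicate 1 or 2. The 87 male-biased genes fell to 54 without European female replicate 2 and to 50 without European male replicate 2. When the markers of other organs were left out of the set, 185 female-biased and 87 male-biased genes were counted among 1297.

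The difference between the sexes was of similar size at most levels of expression. Genes of 3 to 10 RPKM had a median log2 ratio of -0.073 on the X and -0.011 on the autosomes, those of 10 to 30 RPKM -0.072 and -0.0051, and those of 30 to 100 RPKM -0.071 and 0.015. At 100 RPKM and above the X-linked median was -0.039 over 125 genes, against 0.0061. In genes of 1 to 3 RPKM the median was not displaced, at a value of -0.0024 over 226 X-linked genes against -2.2e-05. The female-biased share of that class was nevertheless 7.08% on the X (16 genes) against 2.17% on the autosomes, beside male-biased shares of 8.85% (20 genes) and 7.29%. In the class of 10 to 30 RPKM 18.2% (68 genes) of the X were female-biased against 3.89%, and 7.49% (28 genes) male-biased against 3.99%. Fewer reads stand behind the lowest class, and their part in its calls was not tested.

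**Figure D3:**
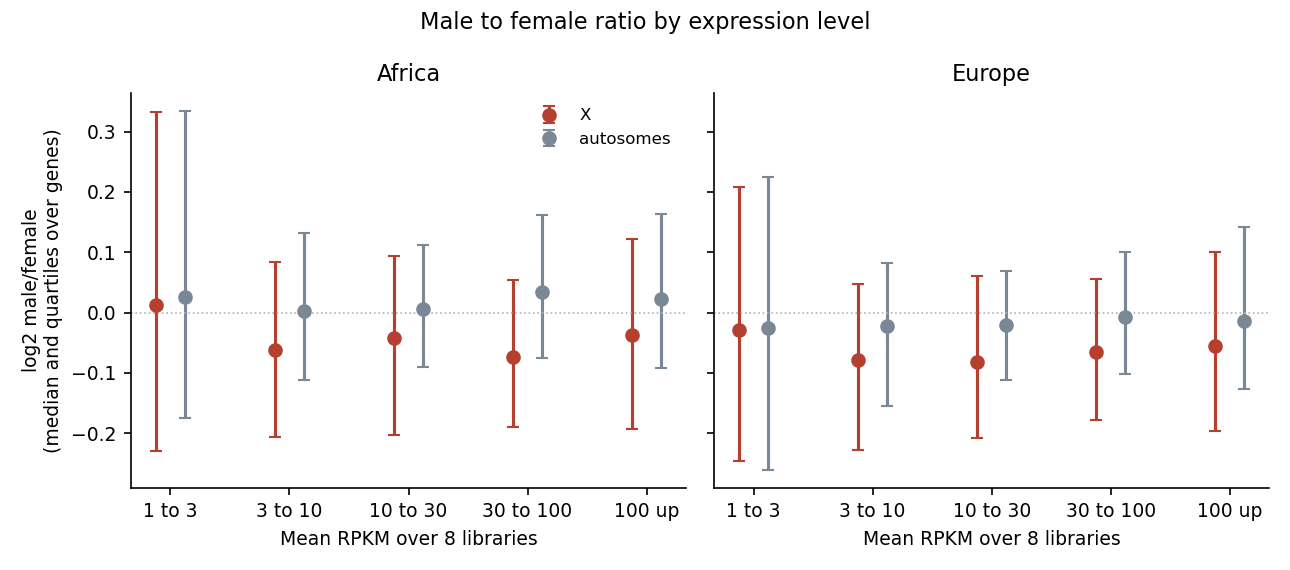
Median log2 male to female ratio with quartiles over genes (vertical axis) in 5 classes of mean RPKM (horizontal axis), for X-linked genes in red and autosomal genes in grey, in each population. From 3 RPKM upwards the X-linked medians lie between -0.073 and -0.037 in Africa and between -0.082 and -0.056 in Europe.

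The X-linked genes were also divided by length of transcript into 4 classes of nearly equal number. The shortest transcripts, of up to 1362 bases, had a median log2 ratio of -0.077, the next class -0.074, the third -0.044 and the longest, of 3688 bases and more, -0.054. The 4 medians were on the same side of 0. In the same order, female-biased genes numbered 51, 52, 43 and 44 and male-biased genes 25, 20, 28 and 14, of 331, 326, 328 and 329. Over all genes tested 4.12% were female-biased and 7.62% male-biased. The autosomal genes were not divided by length.

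The populations shared the pattern. Taken from the 4 African libraries alone, the median log2 ratio was -0.052 on the X and 0.014 on the autosomes. In the 4 European libraries it was -0.065 and -0.019. The X lay 0.066 below the autosomes in Africa and 0.046 below them in Europe. Leaving out 1 library moved the African value between -0.080 and -0.054 and the European value between -0.066 and -0.030. The European extremes came without European male replicate 2 and without European female replicate 2. The difference between the 2 populations was therefore within the range that 1 library gave.

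Gene by gene the ratios of the 2 populations, which share no library, had the same sign for 1003 of the 1314 X-linked genes, or 76.3%, and for 66.7% of autosomal genes. Across genes, which are not independent, Pearson's r was 0.66 on the X and 0.50 on the autosomes, and Spearman's rho 0.65 and 0.45. Ratios lay below 0 in both populations for 48.6% of X-linked genes against 34.3% of autosomal genes, and above 0 in both for 27.8% against 32.5%. Below -0.75 in both populations were 23 X-linked genes, or 1.75%, against 0.6998% of autosomal genes. Above 0.75 in both were 24 X-linked genes, or 1.83%, against 2.49% of autosomal genes.

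Within Africa 6 X-linked genes were female-biased and 4 male-biased, with a background of 0.135% and 0.342% of all genes tested. Within Europe 64 were female-biased and 50 male-biased, with a background of 1.55% and 5.48%. Of the European calls, 61 of 64 and 45 of 50 had the same sign in the African libraries. Each of these fits rested on 4 libraries, and without any single one of them limma called no X-linked gene. At an unadjusted p under 0.05 such fits of 3 libraries still held 79 to 160 female-biased and 68 to 93 male-biased genes in Africa, and 160 to 207 and 77 to 118 in Europe. When the contrasts were instead taken within a fit of all 4 groups, 57 female-biased and 47 male-biased genes were called in Africa and 53 and 47 in Europe.

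The most female-biased X-linked genes were those of the yolk. The yolk proteins encoded by Yp1, Yp2 and Yp3 are made by the female fat body for the egg. Yp1 had 592.7 and 378.4 RPKM in African females and 699.1 and 517.8 RPKM in European females, against 7.18 and 3.13 RPKM in African males and 8.86 and 2.93 RPKM in European males. Its log2 male to female ratio was -6.71 ± 0.38 (SE, limma, adjusted p = 0.00055), and those of Yp2 and Yp3 were -6.29 and -7.25. Of the 8 autosomal markers of fat body that reached 1 RPKM, 3 were female-biased and 2 male-biased. Yp1 and Yp2 are neighbours and alike in sequence, so reads may have been divided between them.

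Next came dhd (deadhead), a thioredoxin of the female germline. It had 24.3, 17.2, 20.5 and 41.2 RPKM in the female libraries and 1.53, 0.428, 1.29 and 0.779 RPKM in the male libraries. Its log2 ratio was -4.57 ± 0.38 (limma, adjusted p = 0.0015), with no overlap. Its immediate neighbour on the X is TrxT, a thioredoxin of the male germline, which differed in the opposite direction. TrxT had 0.323, 0.406, 0.277 and 0.266 RPKM in females, 2.26 and 0.670 RPKM in African males and 3.81 and 4.65 RPKM in European males. Its log2 ratio was 2.56 ± 0.48 (limma, adjusted p = 0.018), and the adjusted p rose to as much as 0.062 without any one of the 4 European libraries. The 28 ovary markers outside the X-linked set summed to between 21.5 and 98.97 RPKM in the female libraries and to between 8.56 and 44.0 RPKM in the male libraries, with overlap. The testis list lay higher in all male libraries, as given above. The part of either in these results was not tested.

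The ovary list held 4 X-linked genes at 1 RPKM, of which dhd is 1. Cp36 and Cp38, which encode proteins of the eggshell, had log2 ratios of -2.65 (adjusted p = 0.0504, limma) and -3.35, and Fcp3C had -0.24 (0.73), with -0.92 in Africa and 0.44 in Europe. Cp38 had 7.20, 1.53, 3.48 and 15.5 RPKM in females and at most 1.65 RPKM in males, with 1 male library above the lowest female one. Its adjusted p was 0.048 in limma, 0.153 with voom and 0.062 with the replicate block, and lay between 0.016 and 0.124 as libraries were left out. The call was lost without either library of European females or males, African female replicate 1 or African male replicate 1. The neighbours CG42705 and CG42704 ranked among the 10 most female-biased genes without overlap of the sexes, but were led by 1 library. CG42704 had 23.9 RPKM in African female replicate 1, between 1.72 and 5.52 RPKM in the other females and 0.343 to 0.526 RPKM in males, and its adjusted p of 0.042 lay between 0.021 and 0.107 as libraries were left out in turn. CG42705 was also highest there, with 6.14 RPKM in that library and at most 1.18 RPKM in any other. Neither was called with a pseudocount of 1 RPKM (adjusted p = 0.0996 for CG42704 and 0.14 for CG42705) or with voom weights on the reads (0.23 and 0.083).

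Away from germline and yolk, Btnd stood out. Btnd encodes biotinidase, which frees biotin for reuse. It had 61.8 and 63.4 RPKM in African females and 57.3 and 51.6 RPKM in European females, against 3.91 and 4.22 RPKM in African males and 8.07 and 6.62 RPKM in European males. The female libraries formed a narrow band far above the males, and European males stood above African males. The log2 ratio was -3.37 ± 0.20 (limma, adjusted p = 0.00055), and it was called in both populations on their own, at -3.87 in Africa and -2.87 in Europe. The difference of 1.01 between those ratios did not pass the interaction test (limma, adjusted p = 0.20).

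Sptr, the sepiapterin reductase that completes the synthesis of tetrahydrobiopterin, had 25.2, 19.8, 23.9 and 24.2 RPKM in females and 6.45, 7.29, 10.3 and 8.98 RPKM in males, a log2 ratio of -1.48 ± 0.11 (limma, adjusted p = 0.0012). The nearby Es2 and CG12116 were female-biased as well, at -0.72 and -1.20. CG17636, at -1.30, and CG4991, at -1.28, complete the 10 of largest size among the female-biased genes without overlap of the sexes. CG4991, CG42704, CG42705, Cp36 and Cp38 averaged 0.80, 0.46, 0.027, 0.53 and 0.58 RPKM in males. They reached the limit of the set only through their level in females, so a difference between the sexes was part of how they were admitted. Cyp4ae1, a cytochrome P450, had 10.0 to 14.9 RPKM in females, with 4.53 to 5.37 RPKM in males, a ratio of -1.24 ± 0.10 (limma, adjusted p = 0.0014).

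Sxl, the switch gene of female development, was the most female-biased member of the dosage pathway. Its level was 33.2, 30.8, 29.7 and 28.6 RPKM in females and 13.3, 13.8, 14.9 and 14.1 RPKM in males. The log2 ratio was -1.10 ± 0.06 (limma, adjusted p = 0.00055), with no overlap. The same call was made within each population, at -1.19 and -1.0. Its neighbours CG4615 and CG4617 were female-biased at -0.49 and -0.46. Gene expression was counted per gene here, so the female-specific and male-specific splice forms of Sxl were not separated. snf, a splicing factor that acts with Sex-lethal, was also female-biased at -0.31 ± 0.04 (limma, adjusted p = 0.0071). mof, the X-linked acetyltransferase of the MSL complex, had 2.10 ± 0.261 RPKM in females and 2.54 ± 0.144 RPKM in males (SD, n = 4 each) and did not pass the test (limma, adjusted p = 0.11).

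The autosomal members of the pathway are given for comparison. msl-2, which limits assembly of the complex, had 5.74 ± 0.452 RPKM in females and 11.2 ± 0.293 RPKM in males, a log2 ratio of 0.97 ± 0.05 (limma, adjusted p = 0.00055). JIL-1, a kinase enriched on the male X, was at 0.21 (adjusted p = 0.047), and dsx, the switch at the end of the sex determination cascade, at 0.83 (adjusted p = 0.0024). msl-1 (0.07), msl-3 (0.12), mle (0.00067) and Clamp (-0.06) did not pass the test, with limma's adjusted p between 0.235 and 0.996 for the 4 genes. Of the 8 X-linked genes of this list, 3 reached 1 RPKM. The roX RNAs are not among these 8, since their names in the list matched no gene. Their levels are therefore not given.

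CG14787, whose function is little known, had the third largest ratio of the male-biased genes on the X. It had 2.58, 2.37, 1.94 and 1.70 RPKM in females and 27.3, 29.2, 24.2 and 24.5 RPKM in males. The ratio of 3.59 ± 0.07 (limma) had the smallest adjusted p of the X-linked genes named here, 2.8e-06, and was called in both populations on their own. APC7, a subunit of the anaphase-promoting complex, had 0.769 to 1.05 RPKM in females, 4.48 and 3.61 RPKM in African males and 7.64 and 7.26 RPKM in European males, with a ratio of 2.48 ± 0.15 (limma, adjusted p = 0.00055). tyn (trynity), a protein of the apical extracellular matrix, had 0.464 to 0.905 RPKM in females against 3.60 to 4.21 RPKM in males, with a ratio of 2.34 ± 0.18 (limma, adjusted p = 0.0012). None of these 3 genes overlapped between the sexes.

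Of the 10 largest male-biased ratios without overlap of the sexes, 7 belonged to genes with a mean under 1 RPKM in females, APC7 and tyn among them. These reached the limit of the set only through their level in males, so a difference between the sexes was part of how they were admitted. lncRNA:CR32652, a noncoding RNA, was listed at 0 to 0.115 RPKM in females and at 2.32, 0.604, 5.37 and 7.89 RPKM in the males, and CG1394 at 0.0629 to 0.138 RPKM in females and 1.95, 0.508, 6.36 and 6.98 RPKM in the males. In both genes, as in TrxT, the male libraries fell in the same order, from African male replicate 2 through African male replicate 1 and European male replicate 1 to European male replicate 2. The summed testis markers lay in this order too, at 76.9, 131.6, 224.3 and 282.6 RPKM, and their part in these 3 genes was not tested. rumpel, a transporter gene, had 0.216 to 0.310 RPKM in females, with 1.52 to 3.31 RPKM in males. Of the remaining genes of the first 10, Cyp4d14, another cytochrome P450, had 9.77 to 16.2 RPKM in females against 26.8 to 58.0 RPKM in males, CG2145 had 11.1 to 18.6 RPKM and 33.6 to 46.9 RPKM, and CG15892 had 0.304 to 0.610 RPKM and 0.773 to 2.52 RPKM.

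**Figure D4:**
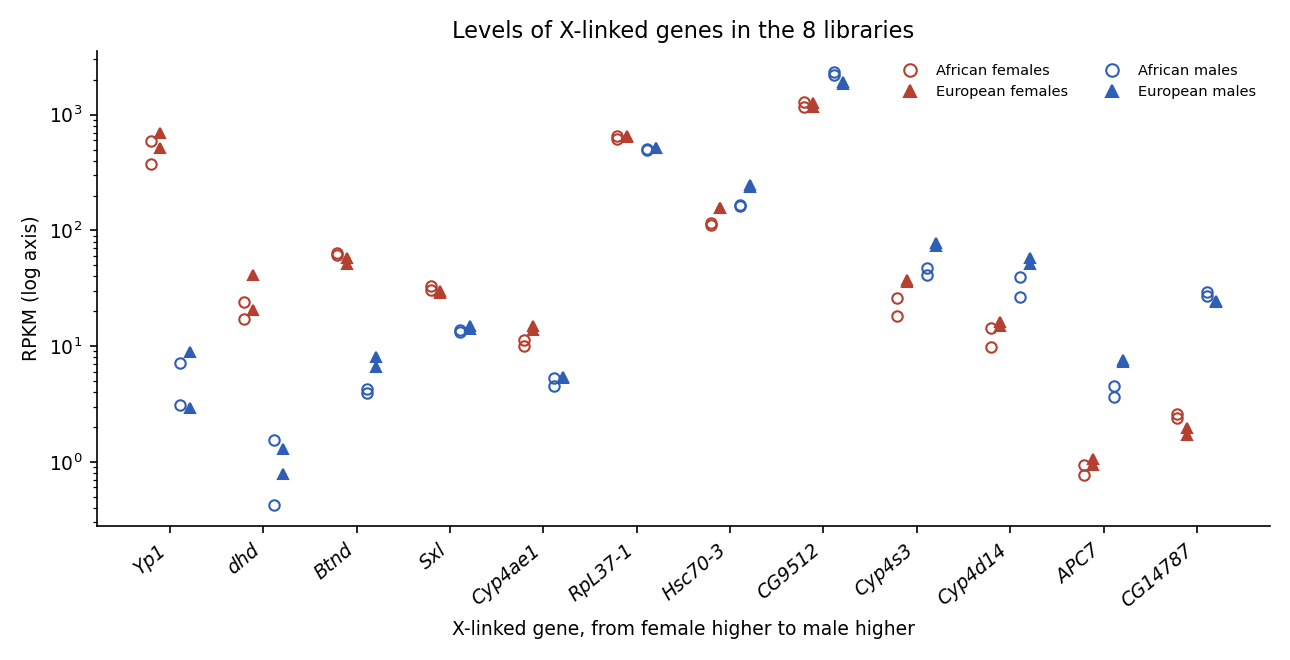
RPKM on a log axis (vertical) of 12 X-linked genes (horizontal) in the 8 libraries. Red is female and blue male, open circles are African and filled triangles European. Yp1, dhd, Btnd, Sxl, Cyp4ae1 and RpL37-1 lie higher in all female libraries and Hsc70-3, CG9512, Cyp4s3, Cyp4d14, APC7 and CG14787 in all male libraries.

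The X-linked genes of highest level included mucin-related genes, a transporter and enzymes of metabolism, and most were alike in the sexes. Mur18B, a mucin-related gene, averaged 18747 RPKM and CG3168, a transporter-like gene, 5541 RPKM. Muc11A, a mucin, averaged 3114 RPKM and Had1, a dehydrogenase, 2444 RPKM. None of these 4 passed the test between the sexes, with ratios from -0.19 to 0.20 and adjusted p from 0.23 to 0.99 in limma. sesB, the mitochondrial carrier that exchanges ADP for ATP, had 1527 to 1648 RPKM in females, with 1451 to 1569 RPKM in males, a ratio of -0.05 with an adjusted p of 0.58. CG9512, an oxidoreductase of the GMC (glucose-methanol-choline) family, was the exception among the 8 highest. It had 1285, 1171, 1164 and 1259 RPKM in females and 2215, 2323, 1860 and 1930.5 RPKM in males, a ratio of 0.79 ± 0.08 (limma, adjusted p = 0.0027).

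Large complexes with subunits on the X and on the autosomes were compared by list. Of 15 X-linked cytoplasmic ribosomal protein genes, 2 were female-biased and 0 male-biased, with a median log2 ratio of -0.048. Of 70 autosomal ones 9 were female-biased and 0 male-biased, with a median of -0.13. At an unadjusted p under 0.05 in limma there were 6 X-linked genes towards females and 1 towards males, and limma with voom weights on the reads also called 2 and 0. RpL37-1, of the large subunit, had 620.7 to 657.7 RPKM in females against 496.8 to 518.6 RPKM in males (-0.32 ± 0.04, limma, adjusted p = 0.0059). RpS15Aa, of the small subunit, stood at -0.20, with an adjusted p of 0.024 that lay between 0.018 and 0.079 as libraries were left out. RpS14a and RpS14b are nearly identical copies, and neither passed the test. The lists, like the genes, were chosen with results of these libraries known.

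Mitochondrial ribosomal proteins went both ways on the X. Of 11 genes, mRpL16 (0.41) and mRpL3 (0.19) were male-biased and mRpL33 (-0.38) and mRpS30 (-0.17) female-biased, with a list median of 0.012. The call of mRpS30 (adjusted p = 0.042) was lost with voom (0.051), with the replicate block (0.059) and without any 1 of the 8 libraries (0.068 to 0.090). The 61 autosomal genes of the list had 9 female-biased genes and a median of -0.13. The adjusted p of mRpL3 was 0.016 and rose to at most 0.067 without any one of the 4 European libraries, and that of mRpL16 rose from 0.015 to 0.053 without European male replicate 2. Of 13 X-linked genes of oxidative phosphorylation, ATPsyndelta (-0.22) and sun (-0.18), both subunits of ATP synthase, were female-biased, and the list median was -0.086 against -0.051 for 59 autosomal genes. The adjusted p of sun was 0.013, or 0.051 without European female replicate 2. The 4 X-linked proteasome genes had a median of 0.12 and 0 calls by limma or voom, with 2 towards males at an unadjusted p under 0.05. The 2 X-linked V-ATPase genes had 0 calls by either and 0 at an unadjusted p under 0.05, while 7 of 17 autosomal V-ATPase genes were female-biased. VhaAC39-1, a subunit of this proton pump, which drives fluid secretion in the tubule, had 481.9 ± 9.22 RPKM in females and 450.6 ± 21.5 RPKM in males (SD, n = 4 each).

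Genes of detoxification and oxidoreductases were called mostly towards males on the X, with Cyp4ae1 as the only female-biased gene of these lists. The list of cytochrome P450 symbols holds 11 X-linked genes, of which Cyp1 is a cyclophilin and no P450. Of the other 10, Cyp4d14, Cyp4s3 and Cyp6v1 were male-biased and Cyp4ae1 female-biased. The adjusted p of Cyp6v1 was 0.018 and rose to at most 0.060 without African female replicate 2, either European female library or European male replicate 2. Cyp4s3 had 26.3, 18.0, 35.6 and 37.6 RPKM in females and 40.9, 47.7, 73.4 and 78.4 RPKM in males, a ratio of 1.06 ± 0.12 (limma, adjusted p = 0.0036), and it was also higher in Europe than in Africa at 0.68. Of the 10, 6 lay above 0 and 4 below. Their median was 0.17, and that of the 58 autosomal genes of the list, which hold the cyclophilin Cyp40, was 0.19. Of those 58, 15 were male-biased and 3 female-biased. GstT3, a glutathione S-transferase, was male-biased at 0.39 ± 0.04 (limma, adjusted p = 0.0024). Its list, which also holds UDP-glycosyltransferases, had 12 male-biased and 1 female-biased of 50 autosomal genes. GstT4 had a larger ratio of 1.06 but did not pass (adjusted p = 0.14). African male replicate 1 had 79.5 RPKM of it and the other males 24.7 to 30.8 RPKM. Of the 12 X-linked GMC oxidoreductase genes 3 reached 1 RPKM. These were CG9512, Eo at 0.50 (adjusted p = 0.025, between 0.011 and 0.079 as libraries were left out) and fiz, whose ratio between the sexes was 0.23 (adjusted p = 0.069, or 0.037 with the replicate number as a block).

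The list of eye pigment and granule genes is made up of genes of pigment synthesis, transport and sorting, since tubules store and transport pigment precursors. It holds 12 X-linked genes, of which VhaAC39-1 is the V-ATPase subunit given above. Of the other 11, 3 were female-biased and 1 male-biased, with a median of -0.21, against 3 and 1 of 14 autosomal genes with a median of -0.044. w (white), an ABC transporter, had 201.6 ± 5.49 RPKM in females and 165.1 ± 12.7 RPKM in males (SD, n = 4 each), a ratio of -0.27 (limma, adjusted p = 0.011). cm (carmine), a subunit of the AP-3 sorting complex, stood at -0.50 and cin (cinnamon), an enzyme of molybdenum cofactor synthesis, at -0.25. The adjusted p of cin was 0.015 and became at most 0.052 without European female replicate 2 or European male replicate 1. mal, which inserts sulfur into the same cofactor, went the other way at 0.26 (adjusted p = 0.042). Its call was lost without any 1 library except African male replicate 2, with adjusted p of up to 0.113.

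Among the remaining lists single genes were called. Hsc70-3, the chaperone of the endoplasmic reticulum, had 110.6 to 157.3 RPKM in females, with 162.8 to 246.9 RPKM in males. African males lay only just above European females, and the ratio fitted with population as a factor was 0.61 ± 0.04 (limma, adjusted p = 0.00055). Hex-A, a hexokinase, was male-biased at 0.55 ± 0.05 (adjusted p = 0.0020), and Gapdh2, of the same pathway, female-biased at -0.21 (adjusted p = 0.023). The latter lay between 0.030 and 0.077 as libraries were left out. Rab3-GEF, an exchange factor listed with the Rab GTPases, was male-biased at 1.04 and its adjusted p of 0.018 became at most 0.062 without any one European library. ArgRS (-0.17), mei-P26 (-0.42) and dx (-0.30) were female-biased with adjusted p of 0.029, 0.044 and 0.045. Leaving out any 1 of the 8 libraries took ArgRS and mei-P26 above 0.05, and any 1 except European female replicate 1 did so for dx, with values up to 0.083, 0.129 and 0.119. With the replicate block mei-P26 and dx were not called either (adjusted p = 0.057 and 0.059). Of the 3 X-linked genes of ion and water transport 0 passed the test in limma or voom, and 2 lay towards females at an unadjusted p under 0.05. The gap junction genes Inx2 and Inx7, among these, had ratios of -0.14 and -0.18.

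**Figure D5:**
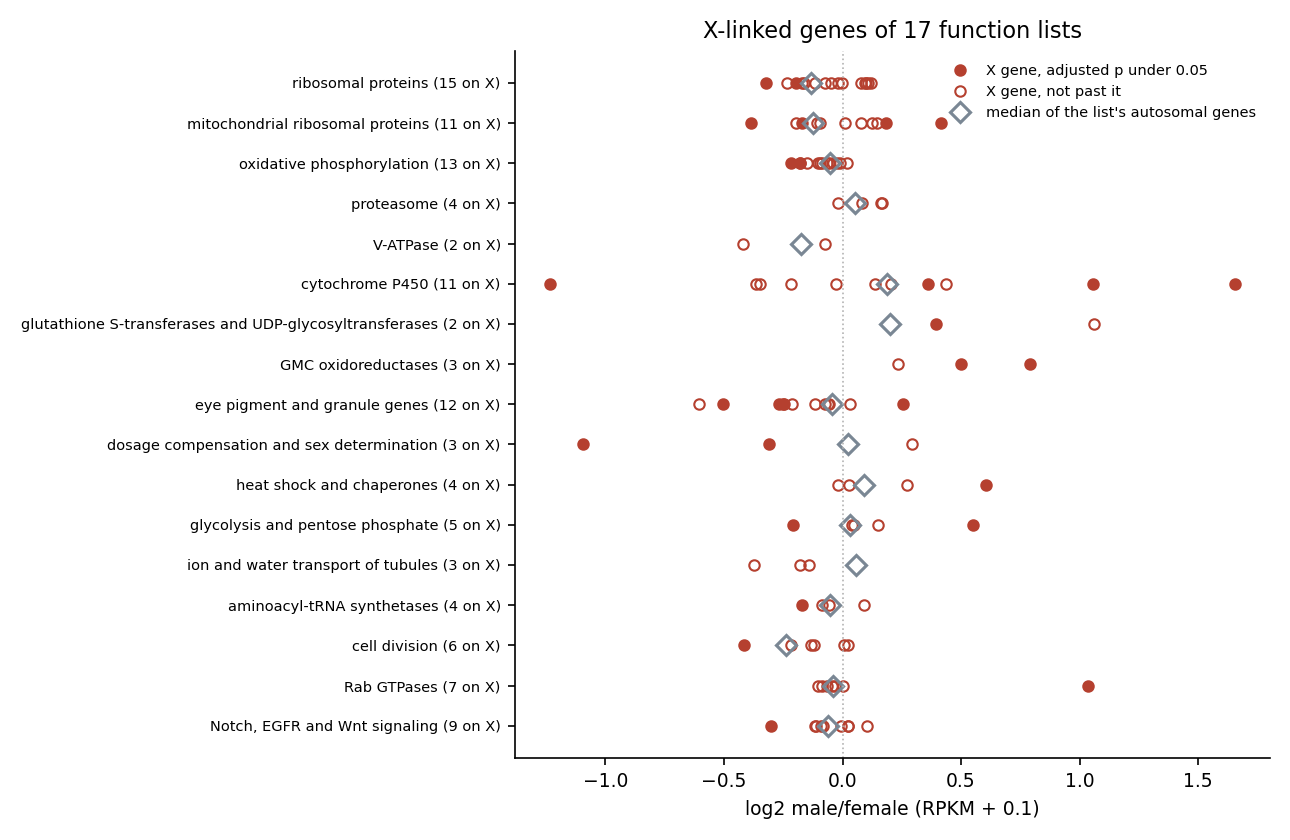
Log2 male to female ratio (horizontal axis) of each X-linked gene in 17 function lists (vertical axis, with the number on the X), filled where the adjusted p was under 0.05, and the median of the autosomal genes of the same list as a grey diamond. The ribosomal genes lie on both sides of 0, from -0.32 to 0.12, and the P450 genes range from -1.24 to 1.66.

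Along the chromosome the displacement was spread over nearly the whole length. The 1283 genes placed on the X in the BDGP6 assembly were divided in order into 10 blocks of 128 or 129 genes. Median log2 ratios ran from -0.10 in the fourth block to -0.032 in the first, and the tenth, from CG14200 to Coa7 at the proximal end, was the exception at 0.010. That block held 13 male-biased and 13 female-biased genes, whereas the fourth held 6 and 23. Ratios of neighbouring genes were weakly alike, with a Pearson's r of 0.14 over 1282 pairs on the X and of 0.19 to 0.25 on the large autosomal arms, and of 0.02 for X-linked genes 2 places apart.

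In the order of the genes that reached 1 RPKM, female-biased genes followed each other in 2 runs of 4 and 9 runs of 3, and no 3 male-biased genes did. Female-biased genes were also more common on the X, at 14.5% against 6.62%, and runs on the autosomes were not counted. In 4 of the 11 runs on the X genes below the limit lay between the members, at most 9 of them. The first run of 4 was sbr, CG15210, CG15209 and CG32669, with ratios of -0.17, -1.01, -0.62 and -0.68. sbr encodes the main export receptor of mRNA. The other was RpL37-1, CG5877, gce and Top1, with 9 such genes between them and ratios from -0.60 to -0.24, in which gce encodes a receptor of juvenile hormone and Top1 a topoisomerase. The run of cm, sloth2 and CG4593 had ratios of -0.50, -0.86 and -0.66. The counting was not stated to use the strand of the reads, so neighbouring genes that overlap may have shared reads.

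The same genes were compared between the populations. On the X 93 genes were higher in Europe and 80 in Africa, with a background of 6.53% and 5.39% of all genes tested. These are 7.08% and 6.09% of the X-linked genes, against 8.32% and 7.16% of the autosomal genes. The median log2 ratio of Europe to Africa was -0.0073 on the X and -0.0063 on the autosomes. All 4 European libraries lay above all 4 African libraries for 12.3% of X-linked genes against 13.2% of all genes tested, and the reverse held for 3.58% against 4.25%. Among autosomal genes of the same limit these shares were higher than on the X, at 17.8% and 4.58%. All these shares were read from the deposited RPKM, without the scaling factors used for the calls. Those factors were 1.02 to 1.04 in the European libraries and 0.927 to 0.997 in the African ones. Unscaled values therefore lean towards Europe. More than 2-fold differences were found for 1.37% of X-linked genes towards Europe and 2.59% towards Africa. With library size alone as the scale the split became 206 and 49, so the split of these counts depends on the scaling. The counts fell to 60, 53, 54 and 55 for Europe when European female replicate 1, European female replicate 2, European male replicate 1 or European male replicate 2 was left out, and to 41, 46, 46 and 44 for Africa. Without African female replicate 1 or African male replicate 2 the African count was 48 or 46. Within females, 15 genes were higher in Europe and 5 in Africa (background 1.11% and 0.541%), and within males 12 and 4 (background 0.636% and 0.477%). For females these were 1.14% and 0.381% of the X-linked genes, against 1.69% and 0.802% of the autosomal genes. For males they were 0.913% and 0.304%, against 0.962% and 0.773%.

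The largest European excess on the X was that of Reepl1, a member of a family of proteins that shape the endoplasmic reticulum. It had 0 to 0.235 RPKM in the African libraries and 4.88, 4.23, 3.40 and 4.37 RPKM in the European ones, a log2 ratio of 4.50 ± 0.34 (limma, adjusted p = 0.00049). tbc had 0.136 to 0.262 RPKM in Africa and 3.45, 1.87, 7.68 and 7.42 RPKM in Europe (3.81 ± 0.40, limma, adjusted p = 0.0016), and CG42395 followed at 2.22. Reepl1, tbc and CG42395 averaged 0.102, 0.208 and 0.281 RPKM in Africa. They reached the limit of the set only through their level in Europe, so a difference between the populations was part of how they were admitted. fiz (fezzik), of the GMC family, had 423.6 to 505.8 RPKM in Africa and 825.5 to 1076 RPKM in Europe, 0.93 ± 0.07 on the log2 scale (limma, adjusted p = 0.00045). Its ratio between the sexes, given above, was 0.23.

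A further 3 genes, fd3F, CG15742 and CG4949, were higher in Europe at 1.82, 1.77 and 1.84 and followed each other closely. fd3F, a forkhead transcription factor known from mechanosensory neurons, had 16.9, 14.2, 15.2 and 12.3 RPKM in Africa, 44.1 and 44.0 RPKM in European females and 70.7 and 65.7 RPKM in European males. CG15742 had 17.3, 16.5, 15.4 and 13.7 RPKM, then 45.7 and 45.0 RPKM, then 73.6 and 69.2 RPKM. In all 8 libraries fd3F was 0.859 to 0.988 times and CG4949 1.68 to 1.96 times the level of CG15742. They are no neighbours. In the order of X-linked genes fd3F and CG15742 are 894 places apart, and CG15742 and CG4949 416 places. Whether they share sequence was not tested.

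Higher in Africa were CG14419 (-2.64, adjusted p = 0.025), bnb (-2.36, adjusted p = 0.0015), CG1304 (-1.90, adjusted p = 0.034), Cnx14D (-1.82, adjusted p = 0.0016) and Karl (-1.63, adjusted p = 0.0016), all by limma. Karl encodes a lipocalin and Cnx14D a calnexin, a chaperone of the endoplasmic reticulum. bnb had 10.8, 14.8, 17.5 and 18.4 RPKM in Africa and 1.99 to 5.70 RPKM in Europe. CG1304 had 26.9 and 26.4 RPKM in the first libraries of African females and males and 8.18 and 9.33 RPKM in the second, and its adjusted p rose to at most 0.096 without African female replicate 1 or any one European library. That of CG14419 rose to at most 0.068 without either African male library or European male replicate 2. CG1304 was not called with voom (adjusted p = 0.086), nor CG14419 with a pseudocount of 0.01 RPKM (0.088).

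The sex-by-population interaction, the test of whether the ratio between the sexes differed between populations, called 1 X-linked gene, with a background of 0.0159% of all genes tested for a ratio more male in Europe and 0.0397% for one more male in Africa. At an unadjusted p under 0.05 there were 39 and 37 X-linked genes. The gene called was CG15742, with a log2 ratio of -0.18 in Africa and 0.66 in Europe and a difference of 0.84 ± 0.08 (limma, adjusted p = 0.042). The adjusted p was 0.052 with the replicate block and lay between 0.054 and 0.338 as each library was left out, so the call was lost in all of these. CG4949 (0.76, adjusted p = 0.081) came next in the same direction. Ag5r2, of the family of secreted cysteine-rich antigen 5 proteins, had 70.7 and 56.2 RPKM in African males and at most 0.902 RPKM in the other 6 libraries, and CG3106 had 7.47 and 13.5 RPKM against at most 0.502 RPKM. Neither passed the interaction test, with adjusted p of 0.093 and 0.22, but Ag5r2 did with a pseudocount of 1 RPKM (0.0097). Ag5r2 and CG3106 reached the limit of the set only through their level in African males. A difference between the groups was thus part of how they were admitted. The African male libraries are those with the high midgut markers, and the part of that in these values was not tested.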

How the data were processed

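Poly-A RNA of Malpighian tubules was sequenced by the study as single reads of 50 bases. The deposited files give RPKM per gene on the longest transcript, which the authors computed from reads mapped to the annotated transcripts. Reads worked back from RPKM, length and library total came out whole within 0.01 for 100% of values above 0. Depth was 19528634 to 27099855 reads per library.

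Gene names came from tables of gene IDs, which matched 1283 of the 1314 X-linked genes directly, 28 through the CG number and left 3 unnamed. Gene order came from BDGP6, which placed 1283 of them on the X. Coordinates are not printed, since the files use another release.

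Levels were scaled by TMM factors (trims of 30% and 5%), which were 0.927 to 1.04, and tested as log2(RPKM + 0.1) with limma 3.58.1 in R 4.3.3 on 12580 genes of at least 12 reads, with adjustment at 5% over all of them. A fold change on this scale understates that of genes of low level. Sex and population were tested in a model of both factors, sex also within each population, and the interaction as a product term. The fits were checked on simulated data.

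Replicate numbers are shared by the groups. Deviations of libraries with the same number from their group means correlated at 0.14 to 0.47 over all 6 pairs of groups (9785 genes), so a block on the number was fitted as an alternative, beside other scalings, pseudocounts, filters, voom on the reads and the omission of each library. P-values measure the spread between pools of flies only.

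The members and lists were chosen with earlier results of these data known. Named are the 10 genes of largest change between the sexes in each direction and the 5 between populations in each direction, among those past 5% without overlap of the 4 libraries on each side, the 5 of smallest interaction p, the 8 of highest level, up to 3 per function list by p for sex, the dosage list, and those at the threshold. Genes outside this rule are said to be chosen later or stand in a list, a run of neighbours or a pair. Promoter motifs were not analysed here.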

Additional observations from a re-analysis of the deposited data

Results flagged for a closer look

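CG15742 was singled out because its difference between the sexes was not the same in the populations. The log2 male to female ratio was -0.18 in Africa and 0.66 in Europe, a difference of 0.838 ± 0.08 by the interaction term (SE, limma, adjusted p = 0.042 over 12580 genes). Both African males lay below both African females, and both European males lay above both European females. The call was lost without any 1 of the 8 libraries, as described above, and under 3 of the other alternatives.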

How the results depend on the processing

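The lower median male to female ratio of the X than of the autosomes kept its direction under every alternative run, with leaving out 1 library giving -0.068 to -0.053 over both populations, -0.080 to -0.054 in Africa and -0.066 to -0.030 in Europe. Without the RPKM filter, over 1987 X-linked genes of at least 12 reads, male-biased genes rose from 87 to 158 and in Europe from 50 to 98. With voom on the reads 10 genes were male-biased in Africa, and in the fit of 4 groups 47 male-biased and 57 female-biased. With library size as the only scale 206 genes were higher in Europe and 49 in Africa. CG15742 was not called for the interaction with library size, voom or the replicate block (0 genes each), and a pseudocount of 1 added 1 gene, more male in Africa. With the replicate block 92 male-biased and 191 female-biased genes were counted, 5 and 5 in Africa and 60 and 81 in Europe, with 87 higher in Europe and 97 in Africa. Of the genes named by rule, the block lost mei-P26, dx and the interaction of CG15742 and added RpL35, ND-B16.6 and fiz, and it changed no other call. Leaving out 1 library gave 50 to 85 male-biased and 88 to 156 female-biased genes, 0 to 0 in each population, 53 to 78 genes higher in Europe and 41 to 85 in Africa, and 0 to 0 and 0 to 1 genes for the interaction. In such fits a lone library is assumed to vary like the other groups. Of 90 results for named genes, of which 55 passed the test, 632 values from fits without 1 library were on the same side of 0.05, 82 lost and 6 gained a call, and no called sign was reversed. A pseudocount of 1 lost CG42705, CG42704 and dx and added the interaction of Ag5r2, voom lost CG42705, CG42704 and CG1304, library size alone added Inx2, ND-B16.6, RpL35, fzr and sta, a pseudocount of 0.01 lost CG14419, and scaling on the autosomal median lost dx and added ND-B16.6. The cause of these changes was not tested. With 2 libraries a group, small differences within 1 population are beyond these data, and genes of 1 to 3 RPKM have the fewest reads.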

Other observations

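Some X-linked genes varied widely between libraries of the same group. The widest was whe (FBgn0031176), with 12.1 and 3279 RPKM in African females, 9.88 and 1085 RPKM in African males, 8.10 and 3.07 RPKM in European females and 410.4 and 724.9 RPKM in European males. lcs (FBgn0028583) was high and low in the same libraries, with 1.96 and 805.5, 4.59 and 366.9, 2.68 and 1.29, and 311.6 and 565.1 RPKM in that order. Both were high in 4 libraries and low in the other 4 without overlap, and the high ones were the second libraries of the African groups and both of the European males. Neither passed a test (whe, adjusted p = 0.50 for sex and 0.73 for population, and lcs, 0.36 and 0.90, limma).

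In African male replicate 1 alone, 7 X-linked genes exceeded 3 times their next highest library, the largest number of any library, followed by 3 in African female replicate 1 and 1 in African female replicate 2. CG12057 had 289.0 RPKM there and at most 8.42 RPKM elsewhere, and CG15043 had 111.3 RPKM there and at most 3.79 RPKM elsewhere. Summed midgut markers were also highest in that library, at 5116 RPKM. These genes were named after their values were seen.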
